A study of Mus musculus with 17 samples.

Results

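The regions described here are the open-chromatin sites at 45 genes of the cell cycle and of DNA replication in mouse bone marrow-derived macrophages (BMDMs). The genes were listed by function, with earlier results of these data known, and a site belonged to the group when its strongest position lay inside the gene body or within 10 kb of it. The assay was ATAC-seq, where adapters carried by Tn5 enter DNA that is not packed in nucleosomes. At the 45 loci there were 120 sites of 34158 in the whole series. Of these, 46 were promoter sites of the members themselves, meaning within 1 kb of an annotated start of the gene, 18 were promoter sites of neighbouring genes and 56 were distal. Distances of sites are given to the nearest start of a protein-coding transcript of the gene, which can lie inside a longer gene model.

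The cells came from male mice of 6 to 12 weeks and were grown for 7 days in L929-conditioned medium, a source of macrophage growth factor. Wild-type (WT) BMDMs came from littermates, and Nur77-deficient (KO) BMDMs came from mice lacking the nuclear receptor encoded by Nr4a1 in the whole body. That line was made by crossing mice with a loxP-flanked Nr4a1 allele to C57Bl6/J mice carrying CMV-Cre. Cre was bred out afterwards, although the labels give the KO genotype as cre. Both genotypes were sampled before lipopolysaccharide (LPS) at 100 ng/ml was added, which is called 0 h, and 1 and 18 h after. There were 3 peak lists in each of the 6 groups apart from WT at 1 h, which had 2, of which the labels call one replicate 1-2. The labels do not say whether replicates were separate animals, so the p-values below measure only the spread between these samples.

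Cells pass from growth into DNA synthesis and division when cyclins switch on cyclin-dependent kinases (CDKs). The CDKs release E2F transcription factors from the retinoblastoma protein, the E2F factors turn on the genes for the MCM helicase, PCNA and nucleotide synthesis, and MYBL2 and FOXM1 act later on the genes of mitosis. CDK inhibitors such as p21, the product of Cdkn1a, halt this sequence. BMDMs divide in response to macrophage colony-stimulating factor, and LPS is known to stop that division.

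No read counts were used. Each list was cut to its strongest 24389 peaks by p-value, the length of the shortest list, and every site was given a rank percentile in each list, on which 100 is the strongest peak and 0 means no peak among those kept. Differences below are in points of this percentile, given as the mean over genotypes ± SE of the limma fit unless stated otherwise, and limma p-values were adjusted over all 34158 sites. A percentile is relative to the other peaks of its own list, so it does not give an absolute amount of open DNA. A group at 0 in all its lists adds no spread to the fit. At sites with many zeros the SE and p therefore rest on few lists and can be too small. In a bulk sample a lower rank in all cells cannot be told apart from loss of the site in some of them.

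The lists differed in depth. A background read density recovered from the p-values ran from 0.382 reads per kb in WT 1 h replicate 1-2 to 9.75 in WT 0 h replicate 3. It was 0.720 to 9.75 over the lists at 0 h, 0.382 to 4.14 at 1 h and 1.10 to 8.38 at 18 h, so the 1 h lists were on the whole the shallower ones. Peaks in KO 18 h replicate 1 were narrow, with a median width of 135 bp against 338 to 661 bp elsewhere. Promoters of macrophage markers had a peak for 7 to 9 of 9 genes per list, against 0 or 1 of 5 for B cells and for neutrophils, 1 of 5 for T cells, 0 to 2 of 5 for stroma, 1 of 4 for endothelium and 0 or 1 of 3 for erythroid cells. At 6 LPS target loci (Il1b, Tnf, Nfkbia, Il12b, Il6 and Cxcl2), 10 of 17 sites (58.8%) ranked higher at 1 h, against 13.3% of all sites. At 18 h, 4 (23.5%) ranked higher, against 11.2%, and at 1 h 1 (5.88%) ranked lower, against 15.0%.

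The sequences shown first are those of sites that ranked higher after LPS at these loci. Each is 201 bases of the plus strand of GRCm38 (mm10) centred on the strongest summit, with motif words in capitals. The Mki67 window, chr7:135699425-135699625, lay wholly inside a coding exon. The E2f8 window, chr7:48888158-48888358, and the E2f1 window, chr2:154574273-154574473, were upstream and intergenic. The Cdk6 window, chr5:3355808-3356008, lay in an intron, and the Cdkn1a window, chr17:29082047-29082247, was upstream and intergenic.
Mki67: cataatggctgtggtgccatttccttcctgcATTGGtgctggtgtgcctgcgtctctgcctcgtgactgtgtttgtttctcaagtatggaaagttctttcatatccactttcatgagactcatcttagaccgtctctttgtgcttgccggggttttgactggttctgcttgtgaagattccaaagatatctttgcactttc
E2f8: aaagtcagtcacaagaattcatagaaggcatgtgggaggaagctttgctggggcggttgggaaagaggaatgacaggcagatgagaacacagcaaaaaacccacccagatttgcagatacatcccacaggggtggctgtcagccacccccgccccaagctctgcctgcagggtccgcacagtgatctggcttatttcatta
Cdk6: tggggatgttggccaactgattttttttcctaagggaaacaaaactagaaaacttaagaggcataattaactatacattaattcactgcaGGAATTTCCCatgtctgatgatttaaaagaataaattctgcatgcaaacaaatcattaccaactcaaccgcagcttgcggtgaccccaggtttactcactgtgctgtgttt
E2f1: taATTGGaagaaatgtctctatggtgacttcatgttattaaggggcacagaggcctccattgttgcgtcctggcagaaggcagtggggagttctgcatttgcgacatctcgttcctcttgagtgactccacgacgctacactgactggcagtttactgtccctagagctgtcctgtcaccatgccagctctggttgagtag
Cdkn1a: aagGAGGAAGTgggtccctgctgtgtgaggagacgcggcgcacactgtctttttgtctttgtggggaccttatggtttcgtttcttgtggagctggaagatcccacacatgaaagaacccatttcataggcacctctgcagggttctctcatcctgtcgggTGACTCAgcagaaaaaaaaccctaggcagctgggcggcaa
The Cdk6 window held an NF-kB word whose middle was 6 bases to the left of the summit. The Cdkn1a window held an AP-1 word (TGACTCA) 64 bases to the right of the summit and a PU.1 word (GAGGAAGT) 94 bases to the left. The Mki67 and E2f1 windows each held a CCAAT word on the opposite strand, and the E2f8 window held none of the words searched.

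Promoters that ranked lower in an LPS or KO comparison are shown as the 250 bases before the RefSeq start (GRCm38.p6), 5′ to 3′ on the strand of the gene, with motif words in capitals. The positions are chr6:88898781-88899030 (minus strand) for Mcm2, chr8:75109259-75109508 (plus) for Mcm5 and chr7:122159185-122159434 (plus) for Plk1. Ccnd3 has an outer start, with chr17:47504801-47505050 before it, and an inner start inside the longer gene model, with chr17:47593217-47593466 before it, both on the plus strand.
Mcm2: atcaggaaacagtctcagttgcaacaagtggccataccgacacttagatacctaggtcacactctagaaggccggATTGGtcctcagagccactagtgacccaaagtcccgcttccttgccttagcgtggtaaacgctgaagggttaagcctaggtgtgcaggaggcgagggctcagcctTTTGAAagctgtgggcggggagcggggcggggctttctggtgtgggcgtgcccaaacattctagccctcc
Mcm5: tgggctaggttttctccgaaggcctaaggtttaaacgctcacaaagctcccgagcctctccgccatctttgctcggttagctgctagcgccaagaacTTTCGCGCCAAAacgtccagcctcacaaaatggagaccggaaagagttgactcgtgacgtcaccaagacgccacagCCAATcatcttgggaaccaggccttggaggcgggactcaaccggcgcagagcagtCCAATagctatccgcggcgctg
Plk1: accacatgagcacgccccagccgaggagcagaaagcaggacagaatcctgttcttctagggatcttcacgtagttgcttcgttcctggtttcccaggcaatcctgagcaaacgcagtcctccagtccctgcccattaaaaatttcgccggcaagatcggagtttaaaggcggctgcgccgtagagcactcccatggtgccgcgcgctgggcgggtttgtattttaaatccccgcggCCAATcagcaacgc
Ccnd3 outer: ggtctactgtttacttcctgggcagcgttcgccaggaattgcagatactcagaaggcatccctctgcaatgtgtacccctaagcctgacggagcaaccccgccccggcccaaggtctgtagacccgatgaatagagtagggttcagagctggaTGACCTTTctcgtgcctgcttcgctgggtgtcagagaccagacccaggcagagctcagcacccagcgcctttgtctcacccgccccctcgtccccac
Ccnd3 inner: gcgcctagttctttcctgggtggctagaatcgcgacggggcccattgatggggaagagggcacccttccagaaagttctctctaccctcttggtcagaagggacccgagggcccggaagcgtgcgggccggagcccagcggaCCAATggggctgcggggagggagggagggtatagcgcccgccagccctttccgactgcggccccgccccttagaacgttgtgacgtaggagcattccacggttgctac
Mcm2, a helicase subunit, had a CHR word (TTTGAA) 64 bases before its start and a CCAAT word further upstream. The window around the summit of its promoter site also held an E2F word and an E-box (CACGTG). Mcm5, another subunit, had 2 E2F words that overlapped each other and 2 CCAAT words. Plk1, a mitotic kinase, had a CCAAT word 9 bases before its start, in a stretch most of which is also an exon of the antisense gene Gm15489. The outer Ccnd3 promoter held an NBRE word (AAAGGTCA, read here on the opposite strand), the sequence that Nur77 binds as a monomer, 89 bases before its start, and the inner one held a CCAAT word.

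Motif words were counted on both strands in the same 250-base windows of 32851 RefSeq promoters, of which 43 belonged to 37 members. An E2F word (TTTCCCGC, TTTCGCGC, TTTGCCGC or TTTGGCGC) was present in 9 of the 43 member promoters (20.9%) against 1.86% of all promoters. The genes were Cdc25a, Cdc6, Cdk1, Cdk2, E2f3, E2f7, Mcm5, Mcm6 and Mcm7. These windows end at the start, so words past it were not counted. A CCAAT word was present in 28 (65.1%) against 33.8%, and a CHR word in 9 (20.9%) against 16%. An E-box (CACGTG) was in 4 (9.30%) against 6.02%, an NF-kB word in 2 (4.65%) against 3.90%, a C/EBP word (TTGCNNAA) in 2 (4.65%) against 9.56%, and the NBRE word in 1 (2.33%) against 1.34%. AP-1, PU.1 and CTCF words were in none of the 43, against 4.46%, 2.44% and 0.508% of all promoters.

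**Figure D1:**
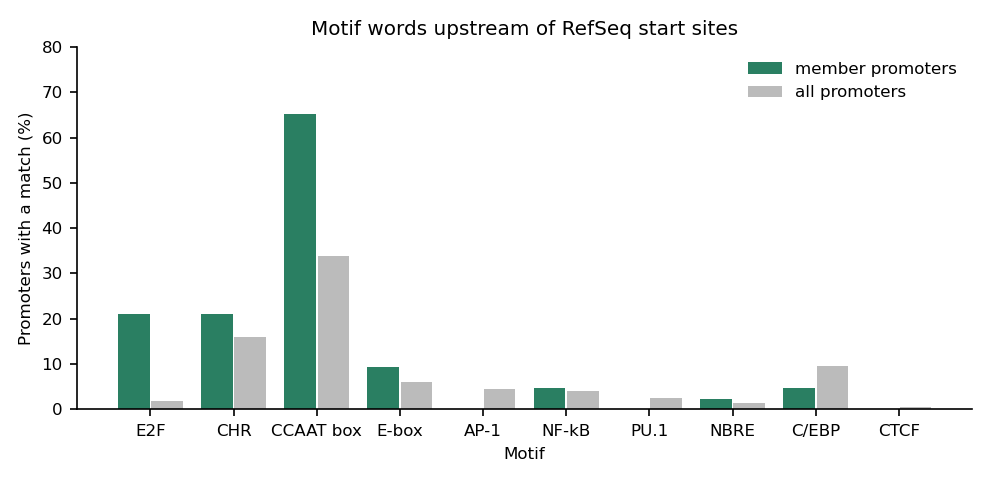
Share of RefSeq promoters (y axis, percent of windows of 250 bases before the start) with at least 1 match to each motif word (x axis), for the 43 windows of member genes and for all 32851. E2F words stood at 20.9% of member windows against 1.86% of all, and CCAAT words at 65.1% against 33.8%.

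The same words were counted in 201-base windows around the summits of the sites. Among the 46 member promoter sites, 11 (23.9%) held an E2F word against 2.96% of 10311 promoter sites, and 26 (56.5%) held a CCAAT word against 30.8%. Among the 56 distal member sites, 8 (14.3%) held an AP-1 word against 21.6% of 23847 distal sites, and 3 (5.36%) held an NF-kB word against 5.21%. The NBRE word was in none of the 46 promoter or 56 distal sites, against 0.514% and 1.27% of all sites of those kinds, and in 1 site of a neighbour, the Ap5s1 promoter near Cdc25b. A match is a description of the letters and not evidence that a factor binds.

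Most cell cycle genes had a promoter peak in every group. A promoter peak was kept in all 17 lists for 32 of the 45 members (71.1%), against 6854 of 21866 protein-coding genes (31.3%), and every member had one in at least 2 lists. Among genes with a peak in all lists, the median percentile was 86.1 for the members and 82.8 for all genes. Per list, 38 to 44 members had a promoter peak. In 4 members, Cdk6, Cdkn2c, Rrm2 and Plk1, the only list without one was KO 18 h replicate 1, the narrow-peak list, and without that list the count was 36.

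Genes of replication licensing and DNA synthesis spanned the whole range. Cdt1, which loads the MCM helicase with CDC6, had the highest median percentile of the 45 (98.9, range 94.1 to 99.8 over the 17 lists). Mcm4 stood at 96.8, Pcna, the sliding clamp, at 95.1, Mcm7 at 92.3, Rrm1, a ribonucleotide reductase subunit, at 90.1, Mcm3 at 88.6, Cdc6 at 86.9, Mcm5 at 77.1, Rrm2 at 74.5, Mcm6 at 71.3 and Mcm2 at 70.1. Tyms, thymidylate synthase, had a promoter peak in 3 lists, at most at 6.02. The median over all 45 members was 76.6, which Rrm2, Mcm6, Mcm2 and Tyms were below.

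Cyclins and their kinases ranged widely. Ccna2, the S-phase cyclin, stood at a median of 93.3 (84.9 to 96.8), Ccne1 at 90.1, Ccne2 at 79.5, Ccnb1, a mitotic cyclin, at 76.6 (46.2 to 87.6), Ccnd3 at 70.3 for its best start and Ccnb2 at 43.0. Ccnd1 and Ccnd2, D-type cyclins of the growth-factor response, had promoter peaks in 9 and 7 lists. Among kinases Cdk4 stood at 96.8, Cdk1 at 70.6, Cdk2 at 59.5 and Cdk6 at 49.5. The phosphatases Cdc25a and Cdc25b, which activate CDKs, stood at 85.3 and 37.3.

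Of the inhibitors, Cdkn1b (p27) stood at 87.6 and Cdkn2c (p18) at 73.3. Cdkn1a had a promoter peak in 2 of the cut lists and in 13 of the uncut ones. A strong site in its gene body, with its summit in an intron 1.65 kb from the nearest start, was kept in all 17. A promoter peak needs a summit within 1 kb of a start, so its absence does not show that the promoter was closed. Among the transcription factors E2f3 stood at 98.6, E2f1 at 91.3, E2f8 at 85.1, Mybl2 at 81.8, Foxm1 at 55.8, Myc at 51.5 and E2f7 at 39.7. E2f2 had a promoter peak in 3 lists, at most at 10.9. Among genes of mitosis and proliferation Aurka stood at 92.9, Cdc20 at 89.5, Birc5 at 88.2, Top2a at 78.6, Mki67 at 76.0 (56.0 to 82.1), Aurkb at 67.3, Plk1 at 47.0 and Bub1 at 46.4. The promoter sites of Aurka, Mcm7 and Foxm1 lay nearer to the start of a divergent neighbour (Cstf1, Ap4m1 and Rhno1), so those peaks belong to a shared promoter.

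**Figure D2:**
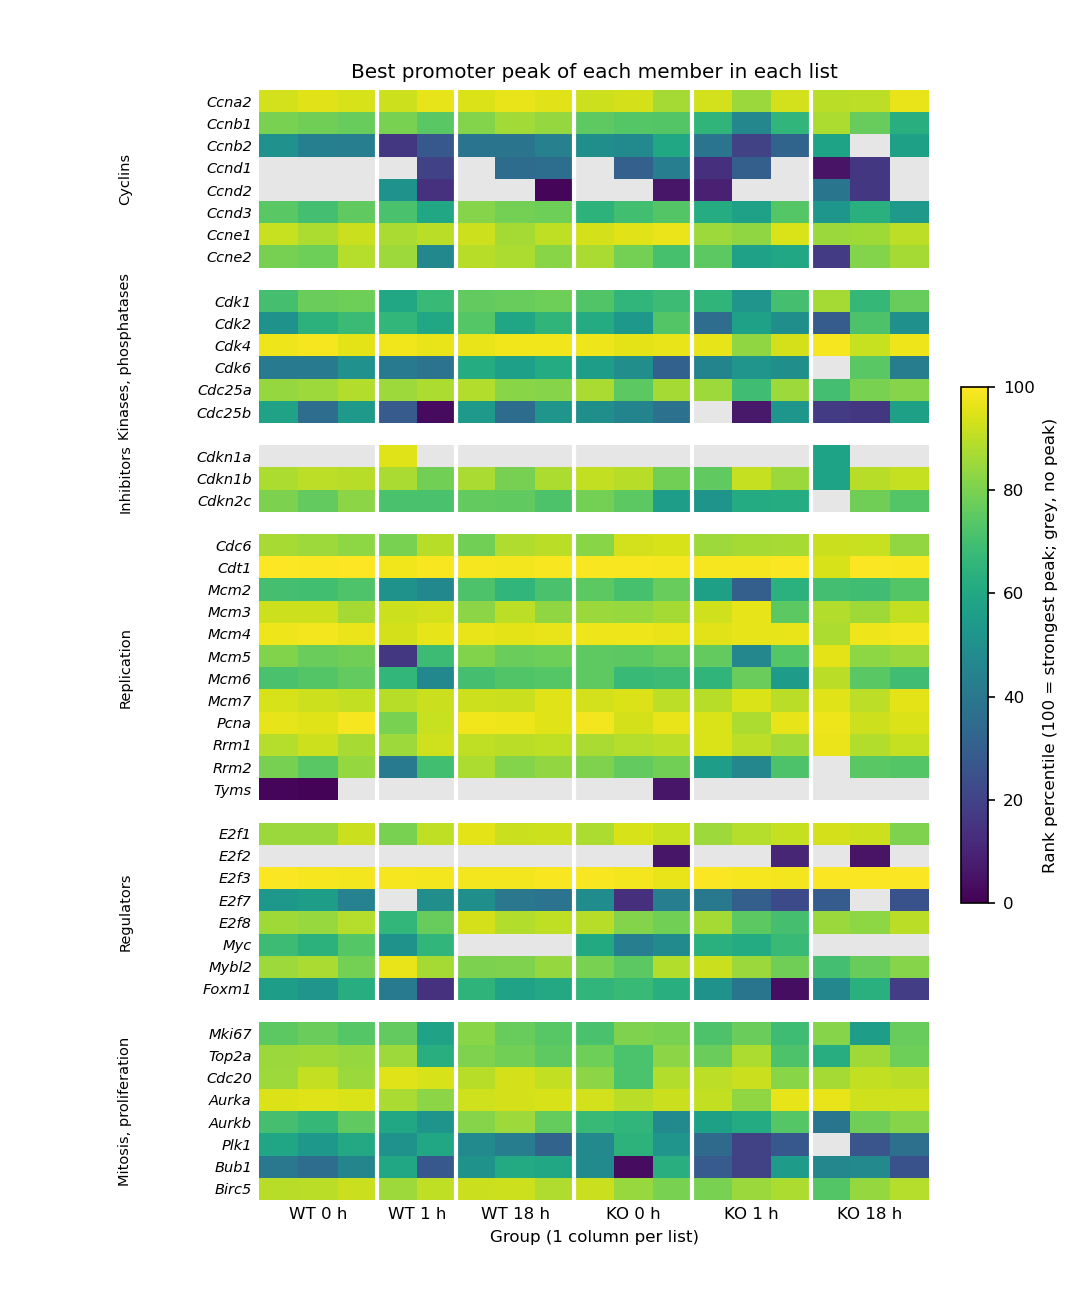
Rank percentile (colour, 100 strongest, grey no peak) of the best peak within 1 kb of a start of each of the 45 members (rows, grouped by role) in each of the 17 lists (columns, grouped by genotype and hours of LPS). Most rows are bright in every column, Cdt1 never falls below 94.1, and Myc is grey in all 6 lists at 18 h, where the 1 KO peak at its wider promoter site has its summit more than 1 kb from a start.

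After 1 h of LPS, sites of the group ranked higher and lower at shares near those of all sites. Of 120 sites, 13 ranked higher (10.8%) and 17 lower (14.2%), against 13.3% and 15.0% of all sites. Of the 46 member promoters none ranked higher and 7 lower (15.2%), against 4.30% and 17.2% of all promoter sites. Of the 56 distal sites, 12 ranked higher (21.4%) and 7 lower (12.5%), against 17.2% and 14.0%. Of the 18 neighbouring promoters 1 was higher and 3 were lower. The number of lower sites was 9 without WT 1 h replicate 1-2, 10 without KO 0 h replicate 1 and 6 with depth in the fit. When a peak had to cover 50% of a site, 5 sites were higher and 23 lower. The median difference was -4.75 points for member promoters, against -5.28 for all promoters, and 0.70 for distal sites, against 0. The member promoter median was -3.86 with depth in the fit and -32.9 when a peak had to cover 50% of a site, and the distal median was 7.61 in the 10000 best peaks and 0.0372 without KO 1 h replicate 2.

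After 18 h fewer sites passed in the fit averaged over genotypes. In WT alone 22 of the 120 passed at 1 h and 10 at 18 h, but in KO alone 12 passed at 1 h and 17 at 18 h. Of 120 sites, 9 ranked higher (7.50%) and 9 lower (7.50%), against 11.2% and 13.1% of all sites. Of the 46 promoters 3 ranked lower (6.52%) and none higher, against 11.8% and 3.92%, and of the 56 distal sites 8 were higher (14.3%) and 6 lower (10.7%), against 14.3% and 13.7%. Of the 18 neighbouring promoters 1 was higher. The median difference was -1.27 for member promoters (all promoters -3.19), or -0.0909 without KO 18 h replicate 1 and -14.2 when a peak had to cover 50% of a site, and 0 for distal sites (all distal sites 0). The comparisons at 1 and 18 h share the lists at 0 h, so their values are given side by side and not correlated.

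**Figure D3:**
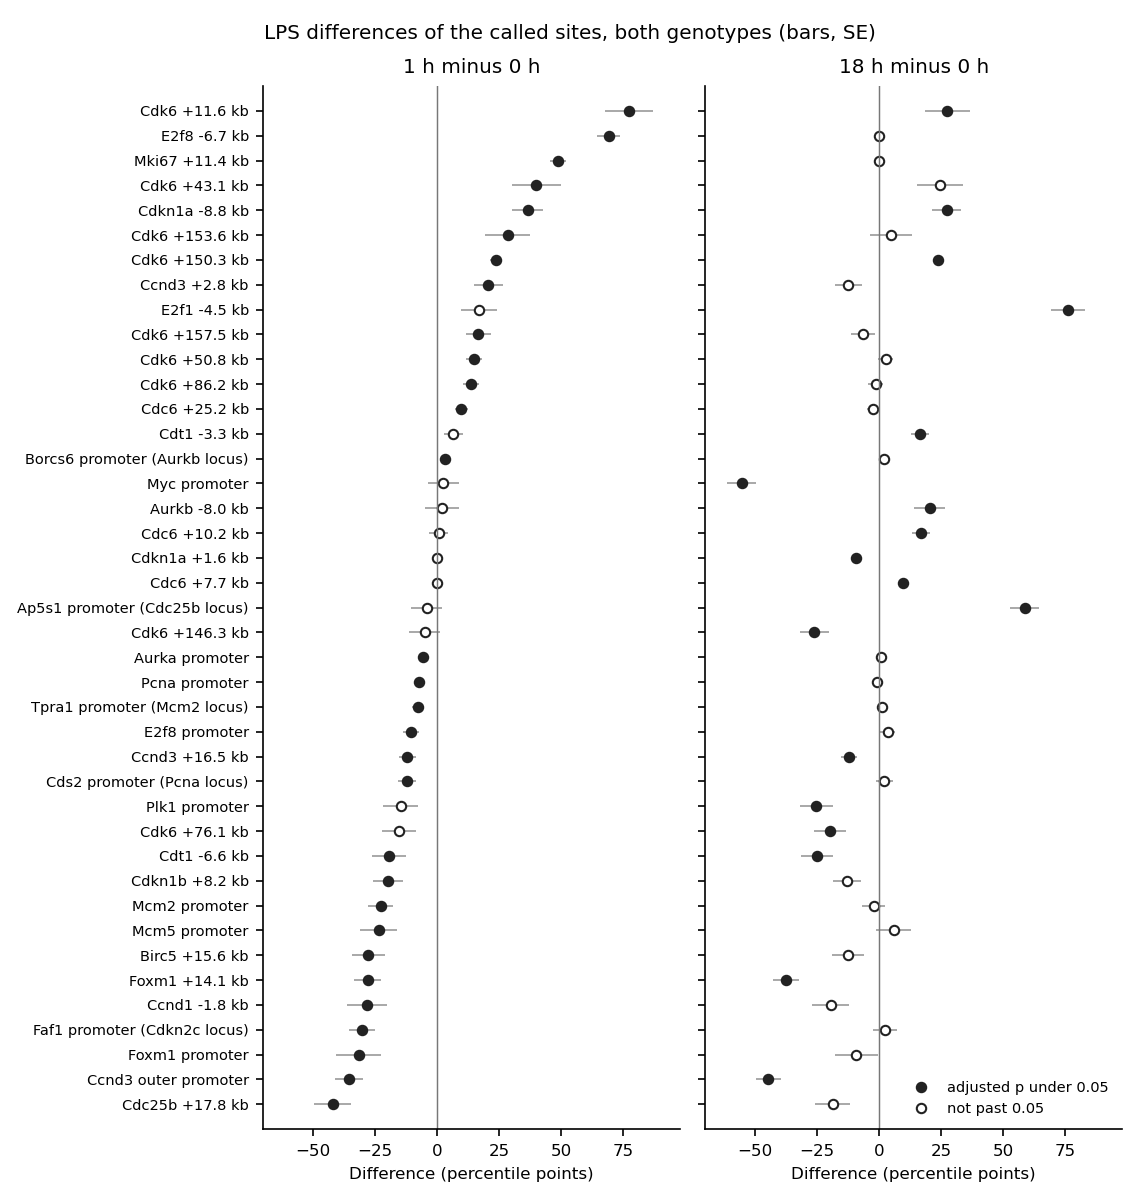
Difference in rank percentile (x axis, points, both genotypes averaged, bars SE) of each member site called in either LPS comparison (rows, with distance from the nearest start of the gene), at 1 h against 0 h (left) and 18 h against 0 h (right). Filled points passed an adjusted p of 0.05. The Cdk6 site 11.6 kb from the nearest start (77.5) and the E2f8 site (69.3) lead at 1 h, and at 18 h the E2f1 site (76.3) rose most and the Myc promoter (-55.4) fell most.

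Sites of Mki67 and E2f8 were kept at 1 h alone. Mki67 encodes Ki-67, the standard marker of dividing cells, and its site at chr7:135699077-135700046 lies in a coding exon, 11.4 kb from an inner start of the gene. It had no kept peak in any of the 6 lists at 0 h or the 6 at 18 h. At 1 h it stood at 51.5 and 62.9 in WT and at 38.3, 46.2 and 36.3 in KO, a difference of 48.7 ± 3.28 (adjusted p = 7.48e-08). No list outside 1 h overlapped this range, although the uncut lists held a weak peak there in 2 of the 6 lists at 0 h. The Mki67 promoter itself (77.6 ± 4.11 SD in WT and 71.5 ± 13.7 in KO at 18 h, n = 3 each) did not pass the test at either time.

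E2f8 encodes an atypical E2F that represses E2F target genes, and its site at chr7:48887666-48889019 lies 6.66 kb upstream. It too was at 0 in all lists at 0 and 18 h. It reached 51.5 and 75.6 in the WT lists and 68.3, 79.4 and 77.4 in the KO lists at 1 h, a difference of 69.3 ± 4.66 (adjusted p = 7.48e-08). In the uncut lists, weak peaks were present there in 5 of 6 lists at 0 h and in 2 of 6 at 18 h, both of them WT. The E2f8 promoter fell by 10.5 points at 1 h, a call lost without either WT 1 h replicate 1-2 or KO 0 h replicate 1.

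Cdk6, a kinase partner of the D-type cyclins and a gene of 190 kb, carried 15 sites, the most of any member. Of its 14 distal sites, 7 ranked higher at 1 h, where 17.2% of all distal sites did. The site at chr5:3355295-3356623, in an intron 11.6 kb from the nearest start, was at 0 in all 6 lists at 0 h, although 5 of them held a peak there before the cut. At 1 h it stood at 59.6 and 84.8 in WT and 81.0, 84.9 and 82.4 in KO, and at 18 h at 20.9, 6.57 and 38.2 in WT and 0, 34.5 and 65.2 in KO. The differences were 77.5 ± 9.69 at 1 h (adjusted p = 2.69e-05) and 27.6 ± 9.13 at 18 h (adjusted p = 0.0387), and the second did not pass when any of 10 single lists was left out. This is the site with the NF-kB word beside its summit.

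A further Cdk6 intron site, at chr5:3493928-3495309, was open before LPS and stronger at both times. Its percentile was 69.2, 69.6 and 62 in WT and 58.6, 61.8 and 65.7 in KO at 0 h. At 1 h it was 90.9 and 90.7 in WT and 87.4, 79.4 and 90.4 in KO, and at 18 h 89.1, 90.6 and 88.2 in WT and 86.4, 86.6 and 89.5 in KO. Every list with LPS was above every list without it, with differences of 23.8 ± 2.42 (adjusted p = 3.78e-06) and 23.9 ± 2.28 (adjusted p = 2.90e-06).

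Of the other Cdk6 sites, the one at chr5:3386814-3387644 rose by 40.1 ± 9.81 points at 1 h. It stood at 4.87, 3.08 and 14.2 in WT and 28.3, 42.6 and 0 in KO at 0 h, at 71.5 and 57.6 in WT and 50.8, 57.2 and 32.1 in KO at 1 h, and at 23.4, 38.3 and 34.1 in WT and 78.1, 41.3 and 25.2 in KO at 18 h, so KO lists at 0 and 1 h overlapped. The site at chr5:3497520-3498209 was at 0 in the lists at 0 h and at 0 and 51.6 in WT and 25.8, 57.2 and 10.9 in KO at 1 h, with KO 18 h replicate 1 at 29.2 and the other lists at 18 h at 0. Its call (difference 28.6 ± 9.06) did not pass without any 1 of 7 lists. The remaining 3 that were higher at 1 h differed by 13.7 to 16.7 points. Among these 3 were both Cdk6 sites described below as lower in KO than in WT at 1 h, so their rises came mainly from the WT lists. At 18 h the site at chr5:3490277-3492251 fell by 26.0 (adjusted p = 0.00439), from 29.6, 31.7 and 29.5 to 6.64, 9.28 and 24.5 in WT and from 40.7, 49.5 and 15.2 to 0 in all 3 lists in KO. The site at chr5:3419911-3421749 fell by 19.6, a call lost without any 1 of 10 lists. The Cdk6 promoter did not pass at either time.

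**Figure D4:**
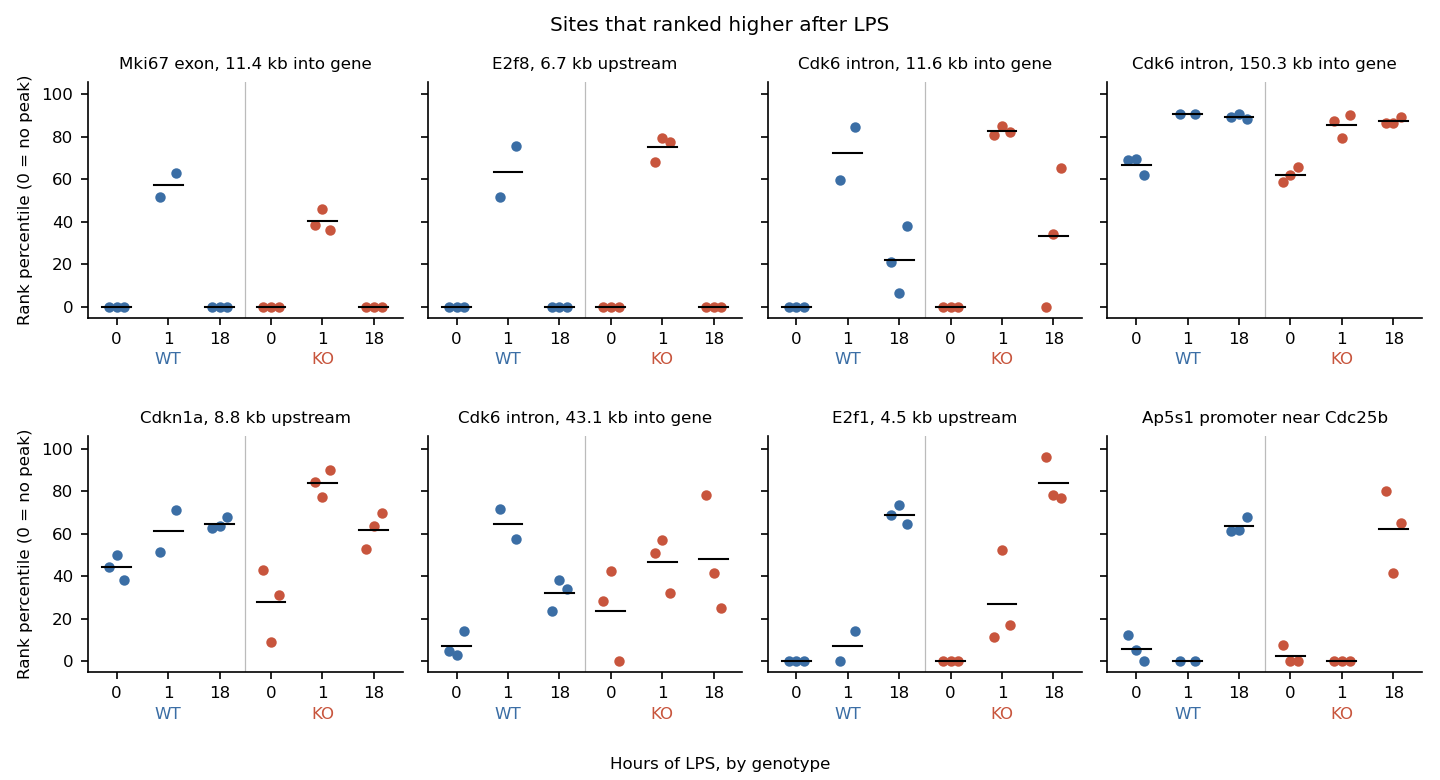
Rank percentile (y axis, 0 means no peak kept) of 8 sites in each list (points; lines, group means) by hours of LPS (x axis) in WT (blue) and KO (red). The Mki67 and E2f8 sites have kept peaks at 1 h only, the Cdk6 site 150 kb from the nearest start is above its 0 h values in all lists with LPS, and the E2f1 and Ap5s1 sites are highest at 18 h.

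An E2f1 site ranked higher late. E2F1 is the classical activator of S-phase genes, and the site at chr2:154573938-154574802 lies 4.48 kb upstream of its start. It was at 0 in all 6 lists at 0 h, at 0 and 14.4 in WT and 11.4, 52.1 and 17 in KO at 1 h, and at 68.6, 73.5 and 64.4 in WT and 96.1, 78.4 and 76.6 in KO at 18 h. Every list at 18 h was above every other list, and the difference was 76.3 ± 6.86 (adjusted p = 1.79e-06). The uncut lists held a peak there in 4 of 6 lists at 0 h and 4 of 5 at 1 h. Its promoter was strong in all groups and did not pass, with group means from 85.1 to 93.4. E2f2, a further activator, had no site that passed. Its strongest, in an intron at chr4:136185240-136186094, ranged from 0 to 69.1 over the lists.

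The Myc promoter fell in rank late. Myc is an immediate-early growth factor target that drives the cyclin D and E2F programmes, and its promoter site at chr15:61983133-61988401 stood at 68.6, 64.2 and 73.5 in WT and 60.8, 42.6 and 47.8 in KO at 0 h. At 1 h it was 51.5 and 65.9 in WT and 63.6, 65.6 and 67.4 in KO, and the test was not passed. At 18 h it was 0 in all 3 WT lists and 0, 0 and 25.2 in KO, and every value was below the range at 0 and 1 h. The difference was -55.4 ± 5.79 (adjusted p = 6.75e-06). In the uncut lists 4 of the 6 lists at 18 h still held a peak at this site, at ranks from 17447 to 33314, namely all 3 WT lists and 1 of the 3 KO lists. The distal Myc site at chr15:61998796-62000411, 12.4 kb from the nearest start, was kept in all 17 lists, between 62.1 and 90.5, and did not pass at either time.

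Foxm1, the activator of mitotic genes, ranked lower at 2 sites. The site at chr6:128381236-128381905, in the neighbouring gene Tex52 and 14.1 kb past an inner start of Foxm1, stood at 37.5, 46.8 and 37.8 in WT and 44.1, 42.6 and 15.2 in KO at 0 h and at 4.94 and 19.3 in WT and 2.47, 0 and 17 in KO at 1 h. It was 0 in all 6 lists at 18 h, of which 2 held a peak before the cut, while at 1 h only KO 0 h replicate 3 was within the range of the treated lists. The differences were -28.0 ± 5.55 (adjusted p = 0.00146) and -37.3 ± 5.23 (adjusted p = 9.51e-05). The promoter shared with Rhno1, at chr6:128361851-128363613, stood at 55.8, 52.1 and 62.4 in WT and 65.7, 67.3 and 62.8 in KO at 0 h, at 40.9 and 14.4 in WT and 50.8, 39.0 and 3.86 in KO at 1 h and at 65.2, 57.4 and 60.5 in WT and 46.4, 63.5 and 18.0 in KO at 18 h. It differed by -31.6 ± 9.17 at 1 h (adjusted p = 0.0179), and the call did not pass without WT 1 h replicate 3.

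A D-type cyclin had the largest loss among member promoters at 1 h. The outer Ccnd3 promoter, at chr17:47504344-47505570, stood at 48.2, 39.1 and 43.0 in WT and 49.5, 60.3 and 37.3 in KO at 0 h. After 1 h it was at 0 and 8.99 in WT and 27.3, 19.7 and 3.86 in KO, and at 18 h at 0 in WT and 0, 0 and 9.70 in KO. No list with LPS overlapped those without, although 4 of 5 uncut lists at 1 h and 5 of 6 at 18 h held a peak there. The differences were -35.5 ± 5.48 (adjusted p = 0.000192) and -44.6 ± 5.17 (adjusted p = 1.69e-05), and both passed under every alternative that gave a value.

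Ccnd3 had 10 sites in all, and they moved in both directions. An intron site 2.85 kb from the nearest start rose by 20.7 ± 5.76 at 1 h, a call lost without WT 1 h replicate 1-2, an intron site 16.5 kb from the nearest start fell by 12.0 at both times, with the 1 h call also lost without that list, and the inner promoter, at chr17:47592843-47594854, did not pass in either LPS comparison. At Ccnd1 a site 1.75 kb upstream, at chr7:144941030-144943966, stood at 47.6, 51.4 and 55.0 in WT and 53.8, 30.5 and 42.8 in KO at 0 h. The 1 h values were 0 and 19.3 in WT and 31.7, 46.2 and 3.86 in KO, and at 18 h 47.3, 44.8 and 40.2 in WT and 5.33, 26.4 and 0 in KO. The 1 h difference of -28.4 ± 8.06 (adjusted p = 0.0157) rests on WT 1 h replicate 1-2, and without it the call did not pass. Ccnd2 sites were kept in 2, 3 and 5 of the 17 lists, and none passed. Nor did the promoters of Ccna2, Ccnb1, Ccnb2, Ccne1 and Ccne2, whose group means stayed between 90.5 and 95.6 for Ccna2 and between 59.1 and 83.9 for Ccnb1.

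Among the CDK inhibitors, Cdkn1a gained upstream of its start. The site at chr17:29080816-29082893, 8.83 kb upstream, stood at 44.1, 50.2 and 38.3 in WT and 43.1, 8.99 and 31.1 in KO at 0 h. At 1 h it was 51.5 and 71.1 in WT and 84.4, 77.1 and 89.8 in KO, and at 18 h 62.5, 63.8 and 67.8 in WT and 52.7, 63.5 and 69.5 in KO. All lists with LPS were above all lists at 0 h, with differences of 36.6 ± 6.25 (adjusted p = 0.000446) and 27.3 ± 5.89 (adjusted p = 0.00304). The strong gene-body site at chr17:29093098-29101592 fell by 9.38 at 18 h, to 78.6, 88.1 and 87.3 in WT and 92.1, 83.0 and 84.8 in KO. This call was lost when a peak had to cover 50% of the site. At Cdkn1b a site 8.22 kb past the nearest start fell by 19.9 at 1 h, a call lost without any 1 of 3 lists. At Cdkn2c the member promoter did not pass, while the Faf1 promoter in its flank, at chr4:109675883-109677419, stood at 85.3, 85.6 and 90.9 in WT and 85.0, 78.3 and 78.6 in KO at 0 h, at 59.6 and 38.3 in WT and 66.0, 46.2 and 62 in KO at 1 h, and at 90.2, 91.6 and 87.3 in WT and 66.5, 95.8 and 86.6 in KO at 18 h. The difference at 1 h was -30.4 ± 5.24 (adjusted p = 0.000479).

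The phosphatase gene Cdc25b had a nearby site that fell at 1 h and another that rose at 18 h. Past its end, the site at chr2:131204047-131205562 stood at 91.3, 91.7 and 91.1 in WT and 88.0, 91.7 and 80.1 in KO at 0 h, at 40.9 and 62.9 in WT and 44.0, 19.7 and 62 in KO at 1 h and at 81.6, 82.2 and 75.9 in WT and 38.8, 74.5 and 69.5 in KO at 18 h. All lists at 1 h were below all at 0 h, and the difference was -42.1 ± 7.45 (adjusted p = 0.000607). The Ap5s1 promoter at chr2:131206532-131207450 was near 0 at 0 h (12.4, 5.07 and 0 in WT, 7.46, 0 and 0 in KO), at 0 in all 5 lists at 1 h and at 61.3, 61.9 and 67.8 in WT and 80.2, 41.3 and 65.2 in KO at 18 h. In the uncut lists 5 of 6 at 0 h and 3 of 5 at 1 h held a peak there. It rose by 58.8 ± 5.79 at 18 h (adjusted p = 3.86e-06).

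**Figure D5:**
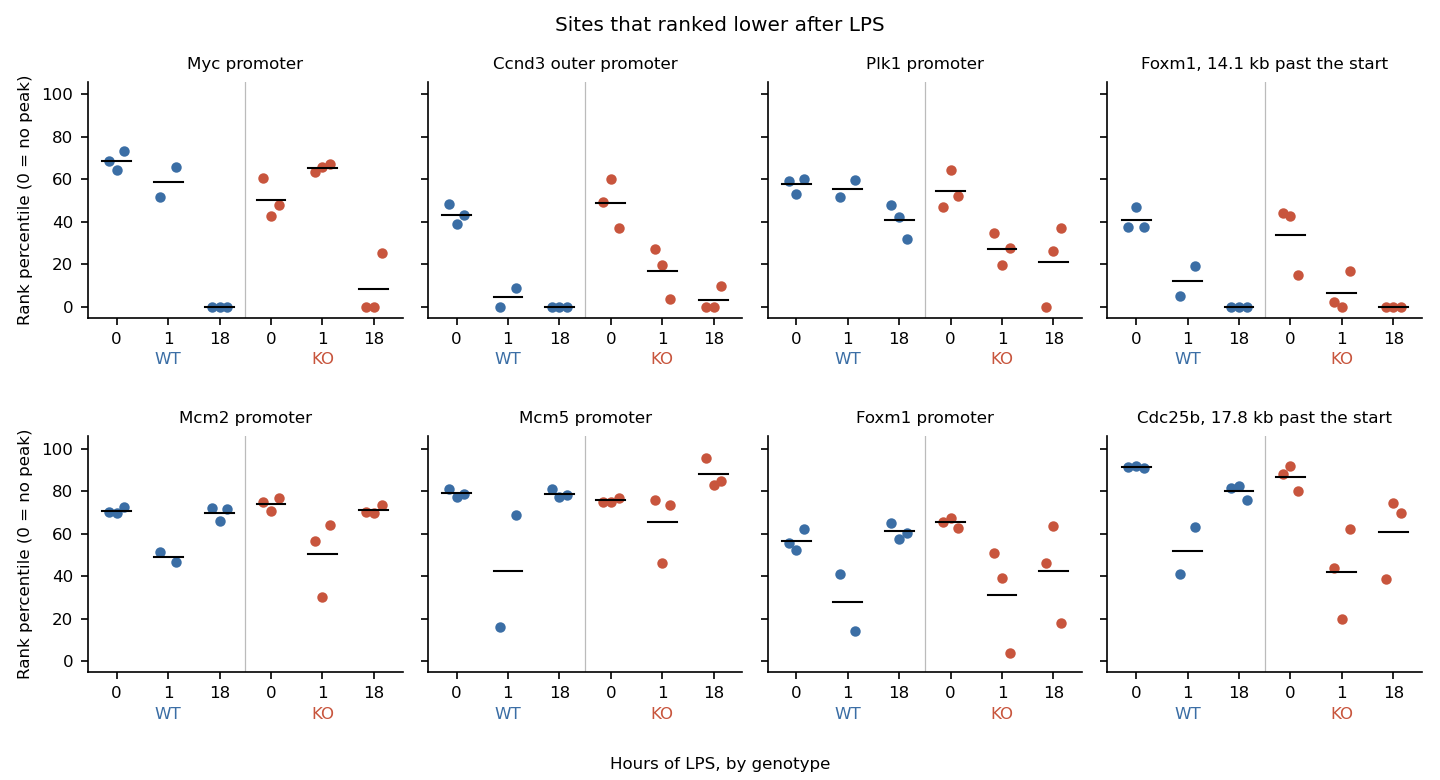
Rank percentile (y axis, 0 means no peak kept) of 8 sites in each list (points; lines, group means) by hours of LPS (x axis) in WT (blue) and KO (red). The Myc promoter is above 0 in every list at 0 and 1 h and at 0 at 18 h apart from 1 KO list, the outer Ccnd3 promoter and the distal Foxm1 site are low from 1 h on, and the Mcm2 promoter is low at 1 h and back at 18 h.

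Promoters of 3 replication genes ranked lower at 1 h, where 17.2% of all promoter sites did, and none of the 3 passed with depth in the fit. The Mcm2 promoter, at chr6:88898118-88899709, stood at 70.3, 69.6 and 72.4 in WT and 74.7, 70.8 and 76.9 in KO at 0 h. It was 51.5 and 46.7 in WT and 56.7, 30.3 and 63.9 in KO at 1 h, and 72.1, 65.8 and 71.4 in WT and 70.1, 69.5 and 73.3 in KO at 18 h. All lists at 1 h were below all at 0 h, and the difference was -22.7 ± 4.96 (adjusted p = 0.00298). Mcm5, at chr8:75108560-75110517, stood at 81.1, 77.2 and 78.5 in WT and 75.1, 74.8 and 76.9 in KO at 0 h, at 16.1 and 68.6 in WT and 76.0, 46.2 and 73.7 in KO at 1 h and at 80.9, 77.1 and 78.0 in WT and 95.8, 83.0 and 84.8 in KO at 18 h. Its difference of -23.4 ± 7.47 (adjusted p = 0.0291) did not pass without any 1 of 7 lists, the lowest value being that of WT 1 h replicate 1-2. Pcna, at chr2:132252115-132253819, fell by 7.29 at 1 h (adjusted p = 0.0165) from 96.4, 95.1 and 98.7 to 79.8 and 91.4 in WT and from 98.4, 93.6 and 96.8 to 94.2, 87.7 and 96.5 in KO, and this call did not pass without WT 1 h replicate 1-2.

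The promoters of Mcm3, Mcm4, Mcm6, Mcm7, Cdc6, Cdt1, Rrm1, Rrm2 and Tyms did not pass at 1 or 18 h. Distal sites near the licensing genes did. At Cdt1 the site 6.59 kb upstream, at chr8:122560812-122561921, stood at 66.2, 72.5 and 65.1 in WT and 66.2, 69.7 and 62.8 in KO at 0 h and at 46.0, 58.2 and 34.1 in WT and 17.3, 47.0 and 50.1 in KO at 18 h. The values at 1 h were 40.9 and 55.7 in WT and 56.0, 39.0 and 46.8 in KO, a difference of -19.3 ± 6.74 that did not pass without any 1 of 10 lists. The difference at 18 h was -25.0 ± 6.35 (adjusted p = 0.00920), whereas the site 3.29 kb upstream rose by 16.5 ± 3.71. Cdc6 had 2 intron sites that rose at 18 h, by 9.79 points with values above 0 in WT alone and by 17 points, and a site past its end that rose by 9.78 at 1 h. When a peak had to cover 50% of the site, the second and the last of these turned, to -14.6 and -11.5 points.

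Among the mitotic genes, the Plk1 promoter, at chr7:122158567-122160118, stood at 59.3, 53.3 and 60.3 in WT and 47.0, 64.6 and 52.2 in KO at 0 h, at 51.5 and 59.5 in WT and 34.6, 19.7 and 27.5 in KO at 1 h and at 47.9, 42.2 and 32.0 in WT and 0, 26.4 and 36.9 in KO at 18 h. All lists at 18 h were below all at 0 h apart from WT replicate 1, which was above KO 0 h replicate 1, and the difference was -25.2 ± 6.56 (adjusted p = 0.0106). Upstream of Aurkb, a site at chr11:69035602-69038855 stood at 67.1, 59.6 and 74.4 in WT and 67.8, 63.2 and 23.8 in KO at 0 h, at 51.5 and 67.3 in WT and 64.3, 61.7 and 63.9 in KO at 1 h, and at 84.5, 73.5 and 73.5 in WT and 78.1, 86.6 and 82.9 in KO at 18 h. Its difference at 18 h was 20.5 ± 6.31 (adjusted p = 0.0271), which did not pass without any 1 of 4 lists. The Aurka promoter fell by 5.50 at 1 h, a call lost without any 1 of 13 lists, and a site past the end of Birc5 fell by 27.7. The Borcs6 promoter near Aurkb rose by 3.29 ± 1.17 at 1 h, a call lost without any 1 of 13 lists and turned to -45.2 points when a peak had to cover 50% of the site. The promoters of Top2a, Cdc20, Aurkb, Bub1 and Birc5 did not pass at either time.

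Fewer of the 1 h calls passed with depth in the fit. The median difference at 1 h went from -4.75 to -3.86 points for member promoters and from 0.697 to 0.822 for distal sites. Why calls were lost was not tested. With the log2 background density of each list in the fit, 1 of the 7 promoters lower at 1 h still passed, the outer Ccnd3 promoter, and Mcm2 reached an adjusted p of 0.0567. Of the 19 distal calls at 1 h, 13 still passed, among them Mki67, E2f8, Cdkn1a, Foxm1, the Cdc25b site past its end and 5 Cdk6 sites. At 18 h, 17 of the 18 calls still passed. An exact permutation test within genotype (two-sided, smallest possible p 0.00500) kept 20 of the 30 calls at 1 h and 13 of the 18 at 18 h. When a peak had to cover 50% of a site, 12 of 29 calls at 1 h and 4 of 17 at 18 h remained. The calls lost then included the upstream Cdkn1a site and the Cdk6 site 150 kb from the nearest start at both times, and the Myc and Plk1 promoters at 18 h.

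In the comparison of genotypes pooled over the 3 times, none of the 120 sites passed. By the limma test 0.662% of all sites did, 13 of the 120 had an unadjusted p under 0.05, and the exact permutation test (4000 regroupings, smallest p 0.000250) called none of the 120. Without WT 1 h replicate 3, 6 sites passed. The median difference, KO minus WT, was -2.21 points for member promoters (all promoters -1.61) and 1.01 for distal sites (all distal sites 0.192). Without KO 18 h replicate 1 the promoter median was -0.863, and without WT 1 h replicate 1-2 the distal median was -0.196. Comparisons of the LPS response between genotypes passed at no site at 1 h or 18 h, against 0.328% and 0.114% of all sites, and before adjustment the limma p was under 0.05 at 8 and 4 sites. Without WT 1 h replicate 3, 6 passed in the comparison at 1 h. None passed at 0 h alone, against 0.255%, with 5 at an unadjusted p under 0.05.

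The 5 sites with the largest pooled difference between genotypes are given although they did not pass. The Plk1 promoter differed by -16.9 ± 5.58 (adjusted p = 0.267), with its values given above. The Cenpb promoter near Cdc25b differed by -16.5 ± 10.5, and its values were 44.1, 43.2 and 48.2, 0 and 85.4 and 59.9, 43.5 and 36.2 in WT at 0, 1 and 18 h and 44.6, 55.3 and 42.8, 28.8, 0 and 0 and 0, 51.8 and 31.4 in KO. The Cdkn2c promoter differed by -15.5 ± 8.55, from 80.2, 76.1 and 82.5, 71.5 and 71.1 and 76.2, 75.7 and 72.1 in WT to 79.1, 74.8 and 56.1, 51.7, 61.7 and 62 and 0, 78.4 and 73.3 in KO, where the value of 0 came from the narrow-peak list.

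A site past the end of Ccnd1 differed by -13.4 ± 6.10, from 16.3, 18.6 and 16.7, 51.5 and 0 and 17.3, 26.9 and 36.2 in WT to 4.90, 3.30 and 15.2, 9.22, 19.7 and 0 and 17.3, 16.2 and 2.65 in KO. An E2f3 intron site differed by -11.8 ± 7.14, from 18.7, 36.6 and 24.9, 76.0 and 41.4 and 0, 16.7 and 24.5 in WT to 13.1, 45.1 and 23.8, 13.5, 39.0 and 27.5 and 29.2, 0 and 0 in KO. WT and KO values overlapped at all 5 sites. The adjusted p-values of the last 4 ran from 0.492 to 0.644.

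At single times 4 sites passed, all lower in KO. At 1 h these were 2 of 120 sites (1.67%) against 1.10% of all sites, and at 18 h 2 of 120 (1.67%) against 0.987%. The Cdk6 intron site at chr5:3429982-3430836 stood at 40.9 and 19.3 in WT and at 0 in all 3 KO lists at 1 h, a difference of -30.1 ± 4.64 (adjusted p = 0.00324), and of the other lists only WT 0 h replicate 3 had a kept peak, at 8.06. The uncut lists held a peak there in all 3 KO lists at 1 h, and the call was lost when a peak had to cover 50% of the site (adjusted p = 0.463). The Cdk6 intron site at chr5:3394173-3395363 stood at 28.6 and 23.6 in WT and 11.4, 0 and 0 in KO at 1 h, at 16.2 in KO 18 h replicate 2 and at 0 elsewhere, a difference of -22.3 ± 4.67 (adjusted p = 0.0290) that did not pass without any 1 of 7 lists. Both set 2 WT lists against 3 KO lists, and both are counted above among the Cdk6 sites higher at 1 h.

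At 18 h the inner Ccnd3 promoter stood at 81.7, 79.0 and 78.0 in WT and 52.7, 51.8 and 46.3 in KO, without overlap, a difference of -29.3 ± 4.95 (adjusted p = 0.00802). At 0 h it was 74.4, 70.3 and 75.6 in WT and 64.5, 69.7 and 73.1 in KO, and at 1 h 71.5 and 59.5 in WT and 61.7, 57.2 and 73.7 in KO. The Cdc6 intron site at chr11:98915550-98916534 was kept at 19.8, 11.8 and 27.2 in WT at 18 h, with 0 in all other lists, a difference of -19.6 ± 3.11 (adjusted p = 0.00500). The uncut lists held a peak there in all 3 WT lists at 0 h and in 1, 2 and 1 of the 3 KO lists at 0, 1 and 18 h. The WT lists at 18 h were deeper, at 4.62 to 8.38 background reads per kb against 1.10 to 1.76 in KO. The Ccnd3 call was lost when a peak had to cover 50% of the site (adjusted p = 0.0780). With depth in the fit the Ccnd3 call passed and the Cdc6 call had an adjusted p of 0.0517.

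The number of peaks at the loci was compared at equal list length. WT lists at 0 h held 95 ± 2.65 peaks (SD, n = 3) over the 45 loci, those at 1 h held 104 ± 0.71 (n = 2) and those at 18 h held 96.0 ± 2.00 (n = 3). KO lists held 98.3 ± 7.09, 102 ± 2.65 and 104 ± 10.7 peaks (n = 3 each) at the same times. In WT both lists at 1 h, with 105 and 104 peaks, were above the 92 to 97 at 0 h, and in KO the ranges at 0 and 1 h overlapped. The difference at 1 h over both genotypes was 6.58 peaks and turned with list length, to -1.75 peaks in the 10000 best and -33.8 in whole lists. In KO at 18 h the narrow-peak list held 116 peaks and the others 97 and 98, and without it the 18 h difference over both genotypes went from 3.17 to 0.0833 peaks. Cdk6 went from 6.33 ± 0.577 peaks in WT at 0 h to 12.0 ± 1.41 at 1 h and 9.0 ± 0 at 18 h, and in KO from 7.67 ± 1.53 to 10.3 ± 1.15 and 7.00 ± 1.00. Myc went from 3.33 ± 0.577 in WT at 0 h to 3.50 ± 0.707 and 1.00 ± 0, and in KO from 3.67 ± 0.577 to 4.0 ± 0 and 1.33 ± 0.577. Top2a and Rrm1 had exactly 1 peak in every list.

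A second list of 77 cell cycle genes gave 174 sites. At 1 h, 11 of them ranked higher (6.32%) and 29 lower (16.7%), and at 18 h 24 higher (13.8%) and 20 lower (11.5%), beside the shares of all sites given above. Of its 94 promoter sites 2 were higher and 13 lower at 1 h and 5 and 8 at 18 h, and of its 80 other sites 9 were higher and 16 lower at 1 h and 19 and 12 at 18 h. The genes named next were chosen after their values were seen. Rb1, the retinoblastoma gene upstream of E2F, had 5 sites that ranked lower at 1 h, where 15.0% of all sites did. Their differences ran from -18.8 to -40.1 points, that of its promoter being -36.9 (adjusted p = 0.00586). Skp2, which directs p27 for degradation, had a site lower by -41.0 at 1 h (adjusted p = 0.000271), and the promoter of Gmnn, the inhibitor of CDT1, was lower by -30.4 (adjusted p = 0.000175). At 18 h a site near Cdc45, a partner of the MCM helicase, was higher by 45.4 (adjusted p = 1.51e-05) and a site near Lin54, of the complex that binds the CHR element, by 44.8 (adjusted p = 0.000306). Between genotypes 1 site of the 174 passed (0.575%, against 0.662% of all sites), the Kif11 promoter, at a mean of 67.6, 54.1 and 60.8 in WT and 93.3, 86.4 and 84.4 in KO at 0, 1 and 18 h (27.2 points, adjusted p = 0.00169).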

How the data were processed

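ATAC-seq was performed on WT and KO BMDMs at 0, 1 and 18 h of LPS. The authors trimmed reads with cutadapt 2.6, aligned them to mm10 and called peaks per sample; the deposited names of the peaks carry a mapping quality of 20, removal of mitochondrial and duplicate reads, and a q-value threshold of 0.001. The deposited columns are an integer score, the fold enrichment (a ratio to background), −log10 p, −log10 q and the summit. The read counts that the authors tested with DiffBind 3.0.15 were not analysed here.

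Entries sharing an interval were collapsed. Lists were cut by −log10 p to 24389 peaks, with ties at the last rank (up to 13.9% of a list) broken at random. Peaks of at least 2 lists were merged into 34158 sites, and a site scored its best rank percentile in each list. Means of the 6 groups were fitted with limma 3.58.1 (R 4.3.3, trended empirical Bayes) and p-values were adjusted by the Benjamini-Hochberg method over all sites, with a threshold of 0.05. The fit was tested on simulated data. Genes were taken from GENCODE M21. Background read densities limit the precision, from 0.382 to 9.75 reads per kb.

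The members and gene lists were chosen with earlier results of these data known. Named sites were the 12 largest differences among those past the threshold in each LPS comparison, the 5 largest between genotypes, any that passed between genotypes at 1 time, and a fixed set of genes (Cdkn1a, Myc, Ccnd1, Ccnd2, Ccna2, Ccnb1, E2f1, E2f2, Mki67, Mcm2, Mcm5 and Pcna); any other site named was chosen after its values were seen. Alternatives were another list length, rank scale, tie seed, overlap and promoter or flank width, depth in the fit, array weights, a replicate block, exact permutation and leaving out each list. Dropping the shallowest and the narrow-peak list together was chosen after seeing the data. Same-numbered lists were not paired (correlations of deviations from -0.134 to 0.0899 over 35 pairs).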

Additional observations from a re-analysis of the deposited data

How the results depend on the processing

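Of the 30 calls at 1 h, 8 kept their direction and passed under all alternatives that gave a value, and of the 18 at 18 h, 3 did. With the 10000 best peaks, 8 sites were higher at 1 h, and 5 were higher and 5 lower at 18 h. The medians at 1 h were then -8.43 points for promoters and 7.61 for distal sites, 19 members had a promoter peak in every list, and the difference in peak number at 1 h was -1.75. When a peak had to cover 50% of the site, 5 sites were higher at 1 h, 2 were higher and 5 lower at 18 h, 3 differed between genotypes and 1 in the 18 h response. The promoter medians were then -32.9 at 1 h, -14.2 at 18 h and -14.5 between genotypes. Under that rule 3 sites reversed, one past the end of Cdc6 (-11.5) and the Borcs6 promoter near Aurkb (-45.2) at 1 h, and a Cdc6 intron site at 18 h (-14.6). With depth in the fit 6 sites were lower at 1 h. Array weights gave 14 higher and 15 lower at 18 h, and exact permutation gave 5 higher. Without the shallowest and narrow-peak lists, 1 site differed between genotypes and 2 in the 1 h response. With whole deposited lists the differences in peak number were -33.8 at 1 h, -33.3 at 18 h and -16.7 between genotypes. The causes were not tested.

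Leaving out 1 list at a time gave 11 to 15 sites higher and 9 to 23 lower at 1 h, and 7 to 11 higher and 8 to 12 lower at 18 h. Between genotypes 0 to 6 sites passed, in the 1 h response 0 to 6 and in the 18 h response 0 to 1. Promoter medians ran from -5.40 to -3.59, -1.57 to -0.0909 and -2.67 to -0.863, and distal medians from 0.0372 to 1.12, 0 to 0 and -0.196 to 1.12, at 1 h, at 18 h and between genotypes. Members with a promoter peak in every list numbered 32 to 36. Peak number differences ran from 5 to 8.50, 0.0833 to 5.08 and 0.778 to 3.94. The replicate block, where numbers are shared but do not pair the lists, gave 11 higher and 9 lower sites at 1 h, 9 and 8 at 18 h, and 0 between genotypes and in both responses. Exact permutation was not run for the responses. Background density ran from 0.382 to 9.75 reads per kb and limits the precision of the ranks.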
